A study of Mus musculus with 4 samples.

Results

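The genes described here build the machinery that moves chromosomes through mitosis: 47 genes of the spindle, the kinetochore and condensin, chosen by symbol from the 22287 genes of the mRNA table. All 47 were found, and all had at least 20 reads over both total RNA libraries, as had 11872 genes in all. The study treated N2a cells, a mouse neuroblastoma line given as strain C57BL/6 in the labels, with manganese. The N2a-Mn library came from cells kept for 48 h in MEM with 300 µM manganese, and the N2a library from untreated cells. Both are total RNA freed of ribosomal RNA, with 1 library per condition. A ratio below therefore describes this pair of libraries and has no replicates behind it. The same treatment text stands beside every sample, and only the titles tell treated from untreated.

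In mitosis, duplicated chromosomes are compacted by condensin, attached to spindle microtubules through kinetochores that assemble on centromeres marked by CENP-A, and pulled apart once the spindle checkpoint is satisfied. Aurora and Polo kinases time these steps, securin and separase release the sister chromatids, and a contractile ring then divides the cell. Most of these genes are transcribed late in the cell cycle, under the DREAM, B-MYB and FOXM1 complexes, so their RNA is a familiar mark of dividing cells such as a neuroblastoma line. In bulk RNA, fewer dividing cells and less of an RNA per cell cannot be told apart.

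The libraries held 14606961 reads assigned to mRNA genes in N2a-Mn and 13972437 in N2a. The mitotic genes took 33675 reads, 0.231% of the total, in N2a-Mn and 32772 reads, 0.235%, in N2a. A log2 ratio below is N2a-Mn over N2a, from counts plus 0.5 divided by these totals, and its bracket is an exact binomial 95% interval that covers counting error only. On this scale the median of all 11872 measured genes was 0.18, and scaling by the median of ratios, which sets that median to 0, lowers every log2 ratio by 0.18. Each value is therefore also to be read against 0.18. The neuroblastoma marker Hand2, a transcription factor gene of sympathetic neurons, had 2951 reads in N2a-Mn and 2674 in N2a. Ptprc and Hba-a1 (blood), Epcam (epithelium), Lum (fibroblast) and Aqp4 and S100b (glia) had 0 reads in both libraries.

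As a group the mitotic genes did not move one way. Their median log2 ratio was 0.0053, with 24 genes above and 23 below 0, but 30 of 47 lay below the median of all genes. At least 1.5-fold higher in N2a-Mn were 9 genes, 19.1% of the group, where 21.6% of all measured genes were. At least 1.5-fold lower were 4 genes, 8.51%, where 5.97% of all measured genes were. With median-of-ratios scaling the counts became 5 higher, against 13.4% of all genes, and 7 lower, against 11.3%. The shares lay near the background on both scales. At 2-fold, 0 genes were higher and 1, Wdr62, was lower, where 7.26% and 1.70% of all measured genes were. The counting interval lay above 0 for 16 genes, below 0 for 14 and across 0 for 17 with column totals. With median-of-ratios scaling it lay above 0 for 11, below 0 for 20 and across 0 for 16. No share over all measured genes is given for these intervals, so they are not read as a result about the group. Of the 9 higher genes, 3 were of the spindle, 3 of the outer kinetochore, 2 of the inner kinetochore and 1, Mki67, of the chromosome surface. The 4 lower genes came 1 each from the spindle, the outer kinetochore, the inner kinetochore and the passenger complex.

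**Figure D1:**
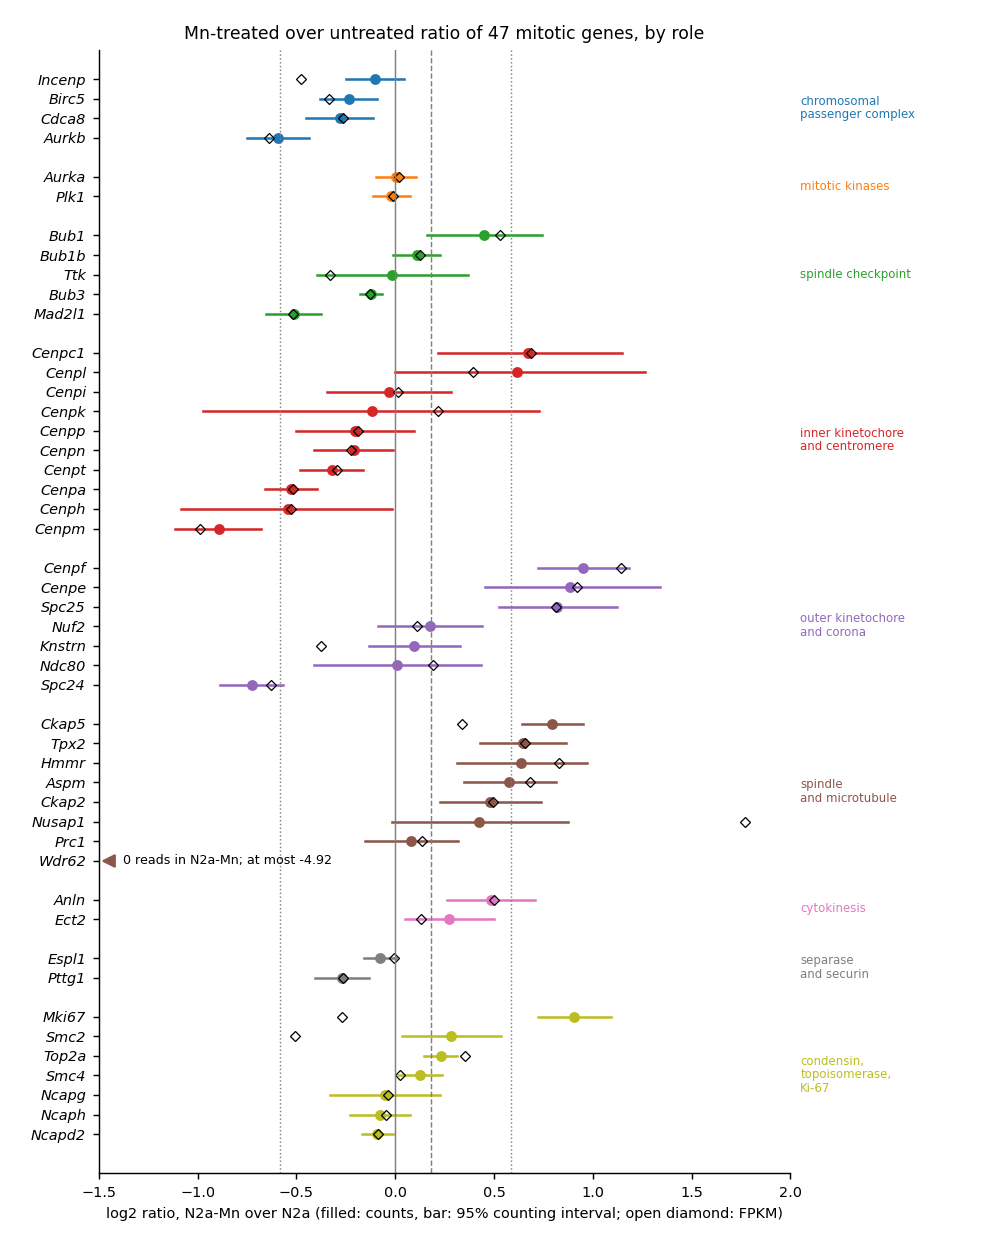
Log2 ratio of N2a-Mn over N2a for each of the 47 genes, grouped by role; filled points are count ratios with their 95% counting intervals, and open diamonds are ratios of the authors' FPKM values. The solid line is 0, the dashed line the median of all measured genes (0.18), and dotted lines mark 1.5-fold; spindle genes other than Wdr62 lie to the right of 0 (Prc1 left of the dashed line, where the scaling turns its sign) and the 4 passenger complex genes to the left, while Mki67, Smc2 and Nusap1 have diamonds far from their points.

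The genes at both ends of the range are shown first, with the 250 bases before their RefSeq start sites. Cenpf encodes a very large protein of the outer kinetochore corona, and Mki67 encodes Ki-67, the proliferation marker that coats mitotic chromosomes. Cenpm encodes a small inner kinetochore subunit, and Cenpa encodes the histone H3 variant that marks centromeres. They are the highest and the lowest pair by count ratio among genes with 100 reads in the higher library and a promoter in the RefSeq table, although the FPKM values put Mki67 at -0.27. Spc24 and Aurkb, which lie between Cenpm and Cenpa, are not in that table, and neither are Incenp, Smc4 and Tpx2. The windows, in GRCm38.p6, are chr1:189688087-189688336 on the minus strand for Cenpf, chr7:135716380-135716629 on the minus strand for Mki67, chr15:82244337-82244586 on the minus strand for Cenpm and chr5:30666636-30666885 on the plus strand for Cenpa. Each is written 5′ to 3′ along its gene. Capitals mark CCAAT, the letters bound by NF-Y, TTTGAA or TTCGAA, the core of the cell cycle homology region (CHR) bound by DREAM and B-MYB complexes, and TTGGCGC or TTCGCGC, forms of the E2F site, on either strand.
Cenpf: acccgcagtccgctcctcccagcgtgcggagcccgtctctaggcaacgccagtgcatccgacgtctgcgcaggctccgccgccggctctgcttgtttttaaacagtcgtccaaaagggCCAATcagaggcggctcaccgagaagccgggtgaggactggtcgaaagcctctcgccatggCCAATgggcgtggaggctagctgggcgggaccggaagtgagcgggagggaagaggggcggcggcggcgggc
Mki67: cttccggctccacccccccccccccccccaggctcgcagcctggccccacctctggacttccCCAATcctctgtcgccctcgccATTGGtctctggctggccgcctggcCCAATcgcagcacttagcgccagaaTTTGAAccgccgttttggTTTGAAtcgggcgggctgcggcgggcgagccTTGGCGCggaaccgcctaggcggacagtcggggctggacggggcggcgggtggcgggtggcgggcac
Cenpm: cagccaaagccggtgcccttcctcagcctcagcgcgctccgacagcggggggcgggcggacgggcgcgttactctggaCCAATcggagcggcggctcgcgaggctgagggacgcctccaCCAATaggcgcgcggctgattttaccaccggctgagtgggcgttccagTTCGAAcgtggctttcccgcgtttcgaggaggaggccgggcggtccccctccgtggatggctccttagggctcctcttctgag
Cenpa: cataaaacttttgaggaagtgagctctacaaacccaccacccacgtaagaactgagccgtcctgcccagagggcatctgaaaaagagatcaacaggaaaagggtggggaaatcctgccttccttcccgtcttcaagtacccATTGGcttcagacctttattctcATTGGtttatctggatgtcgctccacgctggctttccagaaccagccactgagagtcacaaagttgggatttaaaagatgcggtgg

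All 4 windows hold CCAAT at least 2 times, counting both strands. Mki67 holds it 3 times, first letter 188, 166 and 141 bases before the start, followed by TTTGAA at 116 and 98 bases and TTGGCGC at 67 bases. In Cenpm, CCAAT stands at 172 and 131 bases and TTCGAA at 83 bases. Cenpf and Cenpa hold CCAAT and none of the other letters in this window. Of the 42 genes with a promoter in the table, 28 hold CCAAT (66.7%), against 37.3% of 9317 promoters of measured genes and 34.5% of all 27025 promoters. TTTGAA or TTCGAA stood in 14 of 42 (33.3%), against 1116 of the 9317 promoters of measured genes and 17.4% of all. The E2F letters stood in 4 of 42 (9.52%), against 6.14% and 3.23%. All 14 promoters with TTTGAA or TTCGAA also held CCAAT, a pair found in 4.93% of measured genes and 6.21% of all, a count added after the first was seen. The median log2 ratio was 0.17 for the 14 genes with both and -0.0049 for the 28 without, and 3 of 14 and 5 of 28 were at least 1.5-fold higher. For CCAAT the medians were 0.10 for 28 genes with it and -0.05 for 14 without, with 7 and 1 higher. For the E2F letters they were 0.63 for 4 genes with them and -0.0049 for 38 without, with 3 and 5 higher. Those 4 are Cenpl, Hmmr, Mki67 and Ncapd2. By FPKM their log2 ratios were 0.39, 0.83, -0.27 and -0.08, so that only Hmmr was at least 1.5-fold higher on that scale. These are descriptions of small groups, with no test. A match of letters is a description of the window, not of binding.

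The chromosomal passenger complex corrects faulty attachments and directs cytokinesis, and all 4 of its genes had a lower share in N2a-Mn. Aurkb, its kinase, had 567 reads in N2a-Mn and 817 in N2a, a log2 ratio of -0.59 [-0.75 to -0.43], the only one of the 4 past 1.5-fold. Its level was 11.8 FPKM in N2a-Mn and 18.4 FPKM in N2a. Birc5, which encodes survivin and carries the complex to centromeres, had 757 reads in N2a-Mn and 853 in N2a, which gave -0.24 [-0.38 to -0.09]. Cdca8, which encodes borealin, had 529 reads in N2a-Mn and 615 in N2a, at -0.28 [-0.45 to -0.11]. Incenp, the scaffold that activates Aurora B, had 744 reads in N2a-Mn and 764 in N2a, at -0.10 [-0.25 to 0.05]. The FPKM values of Incenp, 10.4 in N2a-Mn and 14.5 in N2a, put it at -0.47, so its place within the complex differs with the scale.

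The other mitotic kinases hardly differed between the libraries. Plk1, which drives centrosome maturation and kinetochore attachment, had 1948 reads in N2a-Mn and 1889 in N2a, a log2 ratio of -0.02 [-0.11 to 0.07]. Aurka, the kinase of spindle poles, had 1662 reads in N2a-Mn and 1584 in N2a, at 0.0053 [-0.09 to 0.11]. Their levels were 41.5 FPKM in N2a-Mn and 41.7 FPKM in N2a for Plk1, and 36.1 FPKM in N2a-Mn and 35.5 FPKM in N2a for Aurka. Aurora A and Aurora B thus had count ratios whose intervals did not overlap. Both kinases lie below the median of all genes: with median-of-ratios scaling Plk1 is at -0.20 and Aurka at -0.18.

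Checkpoint genes ran from lower to higher. Mad2l1, which encodes MAD2, the inhibitor of the anaphase-promoting complex, had 729 reads in N2a-Mn and 995 in N2a, a log2 ratio of -0.51 [-0.65 to -0.37]. Bub3, the WD40 partner of BUB1 and BUBR1, had the highest level of the 47 genes, 95.4 FPKM in N2a-Mn and 104.1 FPKM in N2a. Its 5192 reads in N2a-Mn and 5403 in N2a gave -0.12 [-0.18 to -0.07]. Ttk, which encodes the kinase MPS1 that starts checkpoint signalling, had 119 reads in N2a-Mn and 115 in N2a, at -0.01 [-0.40 to 0.37]. Bub1b, which encodes BUBR1, had 1209 reads in N2a-Mn and 1073 in N2a, at 0.11 [-0.01 to 0.23]. At the upper end stood Bub1, the kinase that recruits shugoshin, with 243 reads in N2a-Mn and 170 in N2a, at 0.45 [0.16 to 0.74]. None of these 5 reached 1.5-fold with column totals, and Mad2l1 passed it, at -0.70, with median-of-ratios scaling.

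In the inner kinetochore, count ratios lay on both sides of 0, and several intervals of genes in one complex overlapped. Cenpa itself had 822 reads in N2a-Mn and 1133 in N2a, a log2 ratio of -0.53 [-0.66 to -0.40], and levels of 29.9 FPKM in N2a-Mn and 42.8 FPKM in N2a. Cenpm had 276 reads in N2a-Mn and 491 in N2a, at -0.89 [-1.11 to -0.68], and 10.5 FPKM in N2a-Mn and 20.9 FPKM in N2a. Its partners in the CENP-H, I, K and M complex were closer to 0. Cenph had 53 reads in N2a-Mn and 74 in N2a, at -0.54 [-1.08 to -0.02], and Cenpi had 175 reads in N2a-Mn and 171 in N2a, at -0.03 [-0.34 to 0.28]. Cenpk had 25 reads in N2a-Mn and 26 in N2a, the fewest of the group, and an interval of -0.97 to 0.73 around -0.12. The interval of Cenpm overlapped those of Cenph and Cenpk, but not that of Cenpi. Cenpn, which binds the CENP-A nucleosome, had 394 reads in N2a-Mn and 436 in N2a, at -0.21 [-0.41 to -0.01]. Its partner Cenpl had 58 reads in N2a-Mn and 36 in N2a, at 0.62 with an interval from just below 0 to 1.27. Cenpc1 encodes CENP-C, the large protein that joins CENP-A chromatin to the outer kinetochore. It had 107 reads in N2a-Mn and 64 in N2a, at 0.67 [0.22 to 1.15]. Cenpt, which recruits the NDC80 complex, had 581 reads in N2a-Mn and 695 in N2a, at -0.32 [-0.48 to -0.16], and Cenpp had 178 reads in N2a-Mn and 196 in N2a, at -0.20 [-0.50 to 0.10]. Of the 10 genes, 2 were at least 1.5-fold higher and 1 lower with column totals, and 0 and 3 with median-of-ratios scaling.

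The NDC80 complex, which grips microtubules, held ratios far apart in both directions. Spc25 had 266 reads in N2a-Mn and 144 in N2a, a log2 ratio of 0.82 [0.52 to 1.12], whereas Spc24, its dimer partner, had 531 reads in N2a-Mn and 841 in N2a, at -0.73 [-0.89 to -0.57]. Their FPKM levels drew together, at 9.92 for Spc25 and 17.3 for Spc24 in N2a-Mn, against 5.64 and 26.7 in N2a. The estimated counts of Spc24 were fractional and those of Spc25 whole, and neither gene overlaps another in GRCm38. Between them lay Nuf2 with 262 reads in N2a-Mn and 222 in N2a, at 0.17 [-0.09 to 0.44], and Ndc80 with 99 reads in N2a-Mn and 94 in N2a, at 0.01 [-0.41 to 0.43]. Nuf2 and Ndc80 form the microtubule-binding end, and the interval of neither excluded 0.

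The large corona proteins had the highest count ratios of the outer kinetochore, but their intervals overlapped that of Spc25. With the median of all genes of like length subtracted, as described below, Spc25 was at 0.83, Cenpf at 0.49 and Cenpe at 0.43. Cenpf had 469 reads in N2a-Mn and 232 in N2a, the highest ratio of the group at 0.95 [0.72 to 1.18]. Cenpe, which encodes a kinesin that carries chromosomes to the spindle equator, had 130 reads in N2a-Mn and 67 in N2a, at 0.89 [0.46 to 1.34]. Both were scarce per unit of length, at 1.93 FPKM in N2a-Mn and 0.87 in N2a for Cenpf and 0.67 FPKM in N2a-Mn and 0.35 in N2a for Cenpe. Knstrn, a partner of astrin at kinetochores, had 334 reads in N2a-Mn and 299 in N2a, at 0.10 [-0.13 to 0.33], but -0.38 on the FPKM scale.

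Of the 8 spindle genes, 7 had a higher share in N2a-Mn with column totals, and 6 with median-of-ratios scaling, under which Prc1 turned to -0.10. Ckap5, a microtubule polymerase, had 951 reads in N2a-Mn and 524 in N2a, a log2 ratio of 0.80 [0.64 to 0.95], on fractional estimates. Tpx2, the activator of Aurora A on the spindle, had 458 reads in N2a-Mn and 280 in N2a, at 0.64 [0.43 to 0.87], although its target kinase was level. Hmmr, a spindle protein also known as a hyaluronan receptor, had 207 reads in N2a-Mn and 127 in N2a, at 0.64 [0.32 to 0.97]. Aspm, a spindle pole protein that is mutated in microcephaly, had 395 reads in N2a-Mn and 253 in N2a, at 0.58 [0.35 to 0.81], just under 1.5-fold. Ckap2 had 315 reads in N2a-Mn and 216 in N2a, at 0.48 [0.23 to 0.74]. Nusap1, which crosslinks microtubules near chromosomes, had 104 reads in N2a-Mn and 74 in N2a, at 0.42 [-0.02 to 0.88]. Prc1, which bundles the microtubules of the midzone, had 321 reads in N2a-Mn and 290 in N2a, at 0.08 [-0.15 to 0.32]. The exception was Wdr62, another microcephaly gene of spindle poles, with 0 reads in N2a-Mn and 87 in N2a, at least 30.3-fold lower against a floor of 3 counts in the N2a-Mn library. The exact 95% interval of its log2 ratio ends at -4.59, a smaller difference than that floor gives. Its count in N2a was a fractional estimate, and in GRCm38 it overlaps Thap8 and Rps12-ps5, so this value is uncertain. At that bound it is still the lowest of the 47 genes, so their median stays the same by construction.

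**Figure D2:**
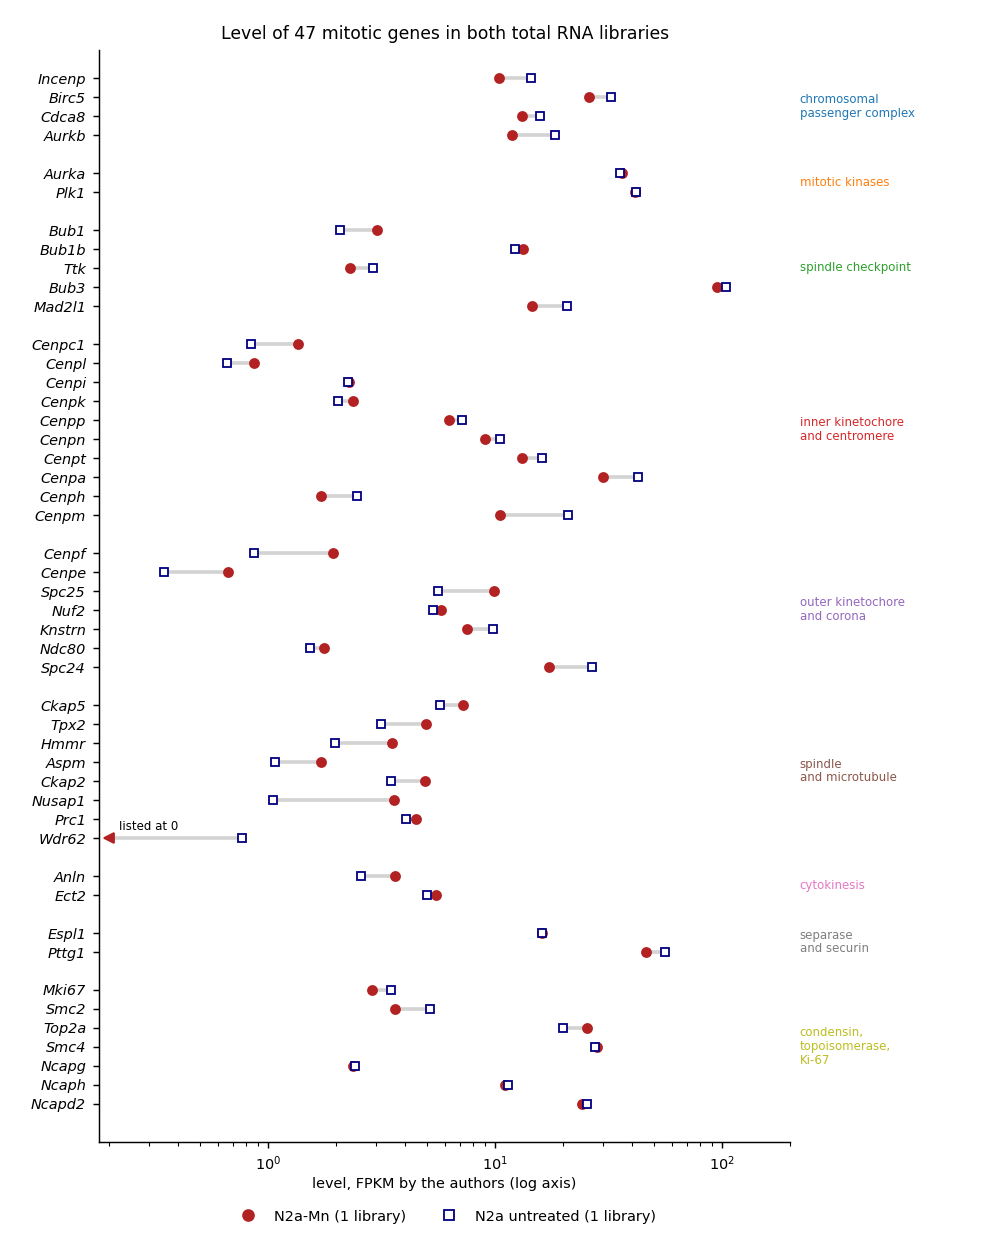
Level of each of the 47 genes in FPKM by the authors, on a log axis, with N2a-Mn as filled circles and N2a as open squares (1 library each). Bub3 stands highest at 95.4 FPKM in N2a-Mn and 104.1 in N2a, Cenpe is among the lowest at 0.67 in N2a-Mn and 0.35 in N2a, and Wdr62 is listed at 0 in N2a-Mn.

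Cytokinesis and sister release gave smaller values. Anln, which encodes anillin, the scaffold of the contractile ring, had 411 reads in N2a-Mn and 281 in N2a, a log2 ratio of 0.48 [0.26 to 0.71]. Ect2, the exchange factor that activates RhoA at the equator, had 368 reads in N2a-Mn and 291 in N2a, at 0.27 [0.05 to 0.50]. Pttg1, which encodes securin, had 833 reads in N2a-Mn and 961 in N2a, at -0.27 [-0.41 to -0.13], and levels of 46.5 FPKM in N2a-Mn and 55.8 FPKM in N2a. Espl1, the separase that securin restrains, had 2427 reads in N2a-Mn and 2451 in N2a, at -0.08 [-0.16 to 0.0033], and levels of 16.1 FPKM in N2a-Mn and 16.2 FPKM in N2a. The cytokinesis pair lay above the median of all genes and the sister release pair below it.

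Condensin I held no gene past 1.5-fold with column totals. Of its motor subunits, Smc2 had 299 reads in N2a-Mn and 235 in N2a, a log2 ratio of 0.28 [0.03 to 0.54], and Smc4 had 1381 reads in N2a-Mn and 1210 in N2a, at 0.13 [0.01 to 0.24]. Of its other subunits, Ncapd2 had 2629 reads in N2a-Mn and 2677 in N2a, at -0.09 [-0.17 to -0.01]. Ncaph had 710 reads in N2a-Mn and 717 in N2a, at -0.08 [-0.23 to 0.07], and Ncapg had 217 reads in N2a-Mn and 215 in N2a, at -0.05 [-0.33 to 0.23]. All 5 lay within 1.5-fold on the count scale and on the FPKM scale, where Smc2 was at -0.51. With median-of-ratios scaling Smc2 was at 0.10, Smc4 at -0.06, Ncapd2 at -0.27, Ncaph at -0.26 and Ncapg at -0.23. Top2a, the topoisomerase that untangles sister chromatids, had 2475 reads in N2a-Mn and 2019 in N2a, at 0.23 [0.14 to 0.32]. Mki67 had 715 reads in N2a-Mn and 365 in N2a, at 0.91 [0.72 to 1.09], the second highest count ratio of the group.

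Counts and FPKM gave the same picture for most genes, and opposite signs for 5, among them Mki67 and Smc2. The log2 ratios differed by less than 0.2 between the scales for 37 of the 47 genes, and by at least 0.5 for 4 (8.51%), as for 6.83% of all measured genes. One of the 4 is Wdr62, whose 0 makes its ratio depend on the added constant. For Mki67 the levels were 2.88 FPKM in N2a-Mn and 3.47 FPKM in N2a, a log2 ratio of -0.27 against 0.91 from counts. Smc2 was at 3.64 FPKM in N2a-Mn and 5.18 FPKM in N2a, a log2 ratio of -0.51 against 0.28 from counts. Nusap1 stood further from 0, with 3.61 FPKM in N2a-Mn and 1.05 FPKM in N2a, a log2 ratio of 1.77 against 0.42 from counts. A count divided by its FPKM and by the reads of the mRNA and lncRNA tables gives the transcript length that the authors' FPKM implies. That length was 11.3 kb in N2a-Mn and 4.77 kb in N2a for Mki67, 3.75 kb in N2a-Mn and 2.06 kb in N2a for Smc2, and 1.32 kb in N2a-Mn and 3.20 kb in N2a for Nusap1. For the median gene the implied length in N2a-Mn was 1.04 times that in N2a, so the implied lengths of these 3 genes differed markedly between the 2 libraries. Whether the FPKM columns used such lengths was not tested. Cenpk, Cenpi and Knstrn also changed sign between the scales, from log2 count ratios of -0.12, -0.03 and 0.10. By FPKM 8 genes were at least 1.5-fold higher and 4 lower, where 21.7% and 6.91% of all measured genes were. Of the 9 genes at least 1.5-fold higher by counts, 6 were so by FPKM, and Cenpl, Ckap5 and Mki67 were not. Aspm and Nusap1 passed 1.5-fold by FPKM only. The 4 lower genes, Wdr62, Cenpm, Spc24 and Aurkb, were the same on both scales.

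The ratios ran with transcript length and, inversely, with level. Over the 47 genes the Spearman correlation of log2 ratio with implied length was 0.54, and it was 0.26 over 11848 measured genes with a length. With the mean FPKM level it was -0.47 and -0.30. These correlations are across genes of the same 2 libraries, which are not independent replicates, and length and level are themselves related, at -0.43 in the group. The 12 longest genes, of 4.02 to 12.1 kb, had a median log2 ratio of 0.53, with 5 at least 1.5-fold higher and 1 lower. Of all 2756 measured genes at least as long, 32.1% were higher and 2.87% lower. The 12 shortest, of 0.57 to 1.80 kb, had a median of -0.25, with 1 higher, Spc25, and 2 lower. Of all 3337 measured genes no longer than these, 14.2% were higher and 9.50% lower. Among all measured genes the median was 0.46 in the longest of 10 length bins and 0.01 in the shortest. After the median of its length bin was subtracted, only Spc25 remained at least 1.5-fold higher, while Wdr62, Cenpm, Spc24, Aurkb and Mad2l1 were at least 1.5-fold lower. The median of the group was then -0.13, with the 12 longest at 0.13 and the 12 shortest at -0.25. By level, 0 of the 19 genes with a mean of at least 10 FPKM were 1.5-fold higher and 3 lower, against 9 and 1 of the 28 below 10 FPKM. Of all measured genes, 6.72% were higher and 5.22% lower at 10 FPKM or more, against 29.3% and 6.39% below it. As shares of the members, 41.7% of the 12 longest and 32.1% of those below 10 FPKM were higher. Of the members at 10 FPKM or more, 0% were higher and 15.8% lower. The median log2 ratio was -0.12 for members at 10 FPKM or more and 0.35 for those below it. All measured genes of those levels had 0.0050 and 0.31. The part of length or level in these ratios was not tested.

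**Figure D3:**
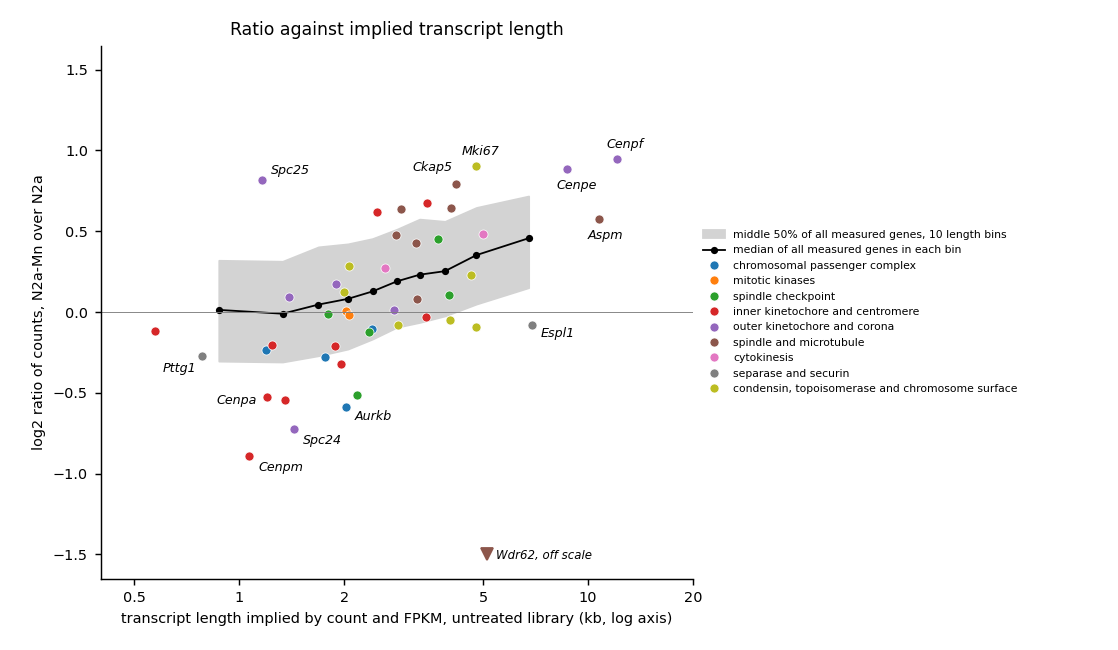
Log2 count ratio of N2a-Mn over N2a against the transcript length implied by count and FPKM in the untreated library (kb, log axis), coloured by role; the black line and grey band are the median and middle 50% of all measured genes in 10 length bins. Cenpf, Cenpe, Aspm, Ckap5 and Mki67 lie above the line among long transcripts, Cenpm, Spc24, Cenpa and Aurkb below it among shorter ones, and Spc25 is a short gene with a ratio of 0.82.

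Genes of the same processes outside the group were taken from 8 lists with 122 symbols, of which 115 were in the table and measured. At least 1.5-fold higher were 10 of the 115 (8.70%) and at least 1.5-fold lower 7 (6.09%), with a median log2 ratio of 0.05, against 21.6%, 5.97% and 0.18 for all measured genes. With median-of-ratios scaling 2 were higher and 15 lower, where 13.4% and 11.3% of all measured genes were. The medians of the kinetochore and of the spindle and centrosome lists below then turned to -0.17 and -0.02. Cohesin and its regulators had the highest median of the 8 lists, 0.47 over 14 genes, with 4 higher and 1 lower. With median-of-ratios scaling their median was 0.28, with 1 higher and 1 lower. Most of these 14 genes had a mean below 10 FPKM. All measured genes below that level had a median of 0.31 with column totals, and 29.3% were higher. The part of length or level in the cohesin ratios was not tested. Nipbl, the cohesin loader, had 606 reads in N2a-Mn and 300 in N2a, at 0.95 [0.75 to 1.15], and the subunit Stag2 had 430 reads in N2a-Mn and 243 in N2a, at 0.76 [0.53 to 0.99]. Cdca5, which encodes sororin, the protector of cohesion, had 405 reads in N2a-Mn and 730 in N2a, at -0.91 [-1.09 to -0.74]. Among 22 other kinetochore and centromere genes 1 was higher and 3 were lower, with a median of 0.0077. Zwint, which links the outer kinetochore to the checkpoint, had 2017 reads in N2a-Mn and 1269 in N2a, at 0.60. Pmf1, a subunit of the MIS12 complex, had 1041 reads in N2a-Mn and 1772 in N2a, at -0.83, and Cenpu had 38 reads in N2a-Mn and 83 in N2a, at -1.18.

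The 18 genes of the anaphase-promoting complex and its partners had a median of -0.09, with 0 higher and 1 lower, Ube2s, the enzyme that extends its ubiquitin chains, at -0.60 with 4426 reads in N2a-Mn and 6432 in N2a. Of 8 other checkpoint genes, Kntc1 was past 1.5-fold at 0.72, and the median was -0.19, with Cdc20, the activator that the checkpoint holds back, at -0.25. The 35 other spindle and centrosome genes had a median of 0.16, with 3 higher and 1 lower: Clasp2, which stabilises microtubule ends, was at 1.21 and Haus4, an augmin subunit, at -0.66. By FPKM 9 of these 35 were higher and 1 lower, where 21.7% and 6.91% of all measured genes were. With column totals those shares of all measured genes were 21.6% and 5.97%. The 8 other cytokinesis genes had a median of 0.20, with Arhgap11a at 0.76 and Racgap1 at -0.21. In condensin II, Ncaph2 had 14783 reads in N2a-Mn and 20677 in N2a, at -0.55, beside Ncapd3 at 0.10 and Ncapg2 at 0.31. The 7 mitotic transcription factor genes had a median of -0.21. Mybl2, which encodes B-MYB, had 1094 reads in N2a-Mn and 2315 in N2a, at -1.15 [-1.25 to -1.04], or -0.74 by FPKM. Foxm1 had 1289 reads in N2a-Mn and 1609 in N2a, at -0.38 [-0.49 to -0.28], and Lin9, a subunit of the DREAM core, was at 0.26 with 113 reads in N2a-Mn and 90 in N2a.

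Beside the mitotic genes, the genes of the MCM helicase, its loading and its activation, which license and fire replication origins, had a lower median. Their 19 genes had a median log2 ratio of -0.35, with 1 at least 1.5-fold higher, Dbf4, and 6 lower, of which Cdc6 was at -1.68 and Cdc45 at -0.89. The group of 47 had a median of 0.0053 with 9 higher and 4 lower. The 12 mitotic kinesins had a median of 0.26, with 3 higher and 0 lower, Kif18a at 0.88 and Kif18b at -0.33. The 12 mitotic cyclins and CDK1 regulators had a median of -0.04, with 0 higher and 1 lower, Pkmyt1, the inhibitory kinase of CDK1, at -1.05. Of all measured genes, 21.6% were higher and 5.97% lower, with a median of 0.18. With median-of-ratios scaling the medians were -0.54 for the MCM list, 0.08 for the kinesins and -0.22 for the cyclin list. The MCM list then had 1 higher and 9 lower, the kinesins 1 and 0, and the cyclin list 0 and 1. The group of 47 was at -0.18 with 5 higher and 7 lower, and all measured genes had 13.4% and 11.3%. With 1 library per condition the differences between these lists have no test.

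**Figure D4:**
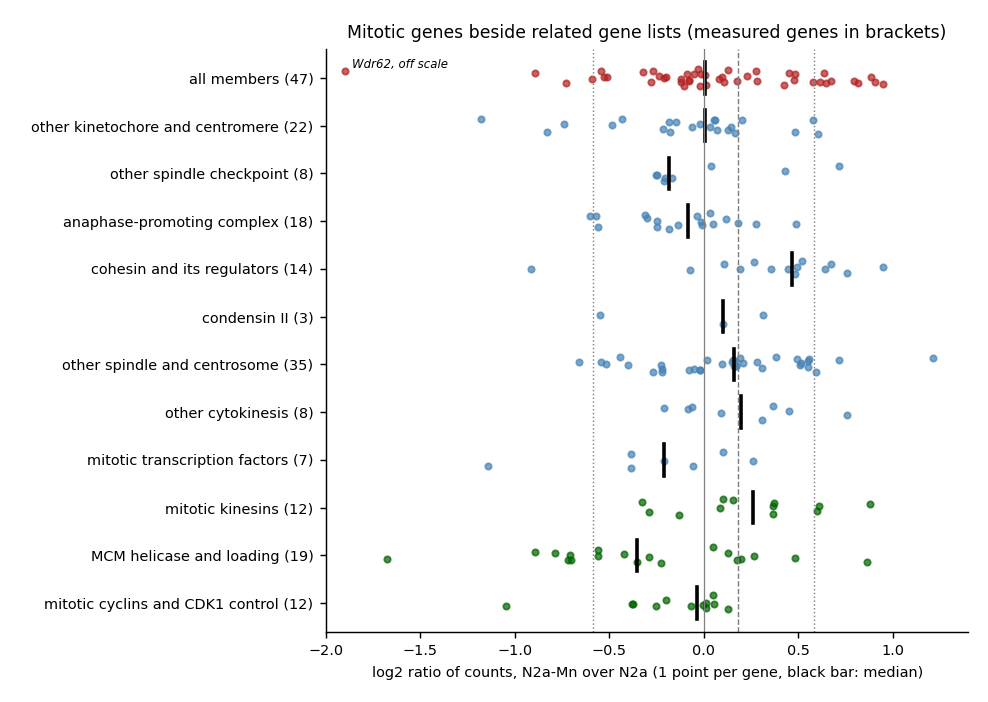
Log2 count ratio of N2a-Mn over N2a for each measured gene of the 47 (top row), of 8 lists from the same processes and of 3 comparison lists, with black bars at the medians; the dashed line is the median of all measured genes (0.18) and dotted lines mark 1.5-fold. The median is 0.0053 for the 47 genes, 0.47 for cohesin and its regulators and -0.35 for the MCM helicase and loading list.

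Circular RNAs, counted from reads that span a back-spliced exon junction, came from 7 of the 47 genes, with 13 of the 2253 circRNAs in the table. A circRNA of 443 bases from Espl1 had 52 junction reads in N2a-Mn and 55 in N2a, of 9433 in all in N2a-Mn and 11665 in all in N2a, a log2 ratio of 0.23 [-0.35 to 0.80]. Ckap5 gave 7 circRNAs with 25 junction reads in N2a-Mn and 12 in N2a together. None had over 6 reads in a library, and the direction differed among them: 5 had more reads in N2a-Mn and 2 had reads in N2a alone. The circRNAs of Bub1b, Cenpc1, Cenpi, Knstrn and Prc1 had at most 6 reads in a library, too few for a difference to be detectable.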

How the data were processed

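Total RNA of 1 Mn-treated and 1 untreated culture of N2a cells was compared, and the small RNA libraries were not used. The submitters' processing notes list build mm9 and the tools fastp 0.18.0, StringTie and Bowtie2, with no role given. The authors deposited estimated counts per mRNA gene, fractional for 13.3% of genes, and per lncRNA transcript, FPKM values and log2 fold changes of FPKM, and whole junction read counts per circRNA. Which program counted reads, whether it used strand and which annotation it took is not given in the sources used here.

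Estimated counts were rounded, a prior of 0.5 was added and column totals (14606961 and 13972437 reads) were the scale. FPKM ratios had 0.01 added. Intervals are exact conditional binomial 95% intervals (scipy 1.17.1), floors are 3 counts, and both cover counting error only, since PCR copies could not be told from separate molecules. The ratio and interval steps were checked on simulated counts. edgeR 4.0.16 gave TMM factors only. With 1 library per group there is no spread to test against, so no test was run. Named genes were all 47 and up to 2 highest and 2 lowest genes of each list. The members and lists were chosen with earlier results of these data known. Gene overlaps come from RefSeq GRCm38.p6, in which all 47 symbols matched and 19 overlapped another gene. Promoter letters were searched in the 250 bases before the first listed start of each gene. Values of some marker genes are not reported here.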

Additional observations from a re-analysis of the deposited data

How the results depend on the processing

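Column totals set the counts of higher and lower genes. With median-of-ratios, TMM or upper-quartile scaling, 5 genes were at least 1.5-fold higher and 7 lower, against 9 and 4, and the median log2 ratio was -0.18, -0.17 and -0.13. After the median of each length bin was subtracted 1 gene was higher, and the median was -0.13. At 2-fold 0 genes were higher and 1 lower. With the 38 genes of whole counts 2 were lower. For the other genes of these processes, median-of-ratios scaling gave 2 higher, 15 lower and a median of -0.13, and FPKM gave 18 higher, against 10, 7 and 0.05. Of all measured genes, 13.4% were higher and 11.3% lower with that scaling, and 21.7% were higher by FPKM. Mki67 reversed, to -0.27 by FPKM and -0.27 in the authors' deposited table, and the cause was not tested. The other genes kept their direction where they were past 1.5-fold, under these scalings, FPKM, a prior of 1 and unrounded counts. Smc2, Cenpk, Cenpi and Knstrn, which lay within 1.5-fold, also changed sign by FPKM. A minimum of 100 reads or none moved no count past 1.5 times. No paired analysis was possible because each condition had 1 library. Without replicates, genes with few reads, such as Cenpk, allow no statement at this depth.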
